A study of Mus musculus with 6 samples.

Results

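The array carried 16181 probes for long intergenic noncoding RNA regions, out of 55681 non-control probes. They were recognised by a name that gives a chromosome, a start, an end and the letter F or R in place of a gene symbol. Together they covered 3540 regions, with a median length of 7315 bases, and 1067 of these regions had probes on both strands. Probes were kept if the scanner software marked them well above background on 3 or more of the arrays, counted over both genotypes, out of 6, and 5619 region probes (34.7%) from 2172 regions met this filter. Among the 39500 other probes, 62.2% passed the same filter. Aortas of C57BL/6 fetuses at E18.5 were compared by genotype, with 3 Nod1 +/- and 3 Nod1 -/- arrays. All fetuses came from Nod1 -/- dams mated with Nod1 +/- males, and every dam had received 500 µg of FK565, a synthetic agonist of the peptidoglycan sensor NOD1, under the skin 6 h before the vessels were taken. The groups therefore shared dam genotype and ligand, and no array came from an untreated dam. The labels do not say whether an array held 1 fetus or several, and the p-values cover only the spread among these arrays, which may be technical.

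Long intergenic noncoding RNAs are transcripts that lie between protein-coding genes and hold no long open reading frame. Many are capped, spliced and polyadenylated like messenger RNAs, some are the primary transcripts from which microRNAs or small nucleolar RNAs are cut, and some stay in the nucleus, where Neat1 scaffolds paraspeckles. Some are induced together with a nearby gene when cells are stimulated. A region on this array is a stretch of genome in which such a transcript was placed, and the letters F and R name the strand that its probes read. All 8140 mapped F probes lay on the plus strand and all 7923 mapped R probes on the minus strand, while 118 probes had no position.

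All probes were 60 bases long, and no sequence occurred more than once among the region probes. The following 11 are printed because the loci described below turn on them. Capitals mark AATAAA, the canonical polyadenylation signal, where it occurs.
A_30_P01032196 near Mrpl39, mm9 chr16:84708738-84708797, plus strand: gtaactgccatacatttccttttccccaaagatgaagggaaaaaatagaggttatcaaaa
A_30_P01020928 near Mrpl39, mm9 chr16:84706075-84706134, minus strand: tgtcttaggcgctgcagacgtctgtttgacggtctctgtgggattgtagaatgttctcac
A_30_P01033298 near Mirt1, mm9 chr19:53534643-53534702, minus strand: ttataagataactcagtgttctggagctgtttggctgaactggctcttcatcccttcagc
A_30_P01025687 near Pvt1, mm9 chr15:62074025-62074084, plus strand: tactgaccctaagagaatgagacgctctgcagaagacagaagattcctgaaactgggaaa
A_30_P01029746 at Mir17hg, mm9 chr14:115445828-115445887, plus strand: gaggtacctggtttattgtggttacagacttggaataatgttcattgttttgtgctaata
A_30_P01026422 near Gas5, mm9 chr1:162967656-162967715, plus strand: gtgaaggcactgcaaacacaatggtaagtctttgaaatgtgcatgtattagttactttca
A_30_P01025818 near Neat1, mm9 chr19:5834603-5834662, minus strand: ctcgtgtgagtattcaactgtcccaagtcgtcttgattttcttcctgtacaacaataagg
A_30_P01032068 near C430049B03Rik, mm9 chrX:50406967-50407026, minus strand: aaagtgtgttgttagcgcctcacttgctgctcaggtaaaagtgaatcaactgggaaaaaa
A_30_P01031408 near Apela, mm9 chr8:67552372-67552431, minus strand: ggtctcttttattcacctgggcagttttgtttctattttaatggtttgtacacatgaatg
A_30_P01024792 near Zfp281, mm9 chr1:138528253-138528312, minus strand: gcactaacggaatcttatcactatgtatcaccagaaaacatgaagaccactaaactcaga
A_30_P01020746 near A230057D06Rik, mm9 chr7:68849402-68849461, minus strand: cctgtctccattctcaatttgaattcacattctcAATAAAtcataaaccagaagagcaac
Of the 11, 1 held the signal. Among all region probes AATAAA occurred in 3.92% and its reverse complement TTTATT in 3.02%, and among kept region probes in 4.16% and 2.62%.

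A further trio, from a pair of overlapping regions beside Irf1, is printed because its members share bases and so are not independent readings. Capitals mark positions that another of the trio also covers.
A_30_P01031674 beside Irf1, mm9 chr11:53596980-53597039, minus strand: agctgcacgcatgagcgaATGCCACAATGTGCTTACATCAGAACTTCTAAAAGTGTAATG
A_30_P01030888 beside Irf1, mm9 chr11:53596962-53597021, minus strand: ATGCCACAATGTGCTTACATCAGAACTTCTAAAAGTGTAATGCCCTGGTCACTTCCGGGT
A_30_P01025535 beside Irf1, mm9 chr11:53596920-53596979, minus strand: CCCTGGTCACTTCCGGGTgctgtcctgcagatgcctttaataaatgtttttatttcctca
The middle probe shares 42 bases with the first and 18 with the last. Of the kept region probes, 255 started within 30 bases of another kept region probe on the array, and 42 had the same sequence as an array probe outside the region set.

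Levels are log2 signals after subtraction of each array's 75th percentile, taken across non-control probes, and differences are Nod1 +/- minus Nod1 -/-. A probe is called when limma's Benjamini-Hochberg adjusted p, over all 30172 kept probes of the array, is under 0.05. The value of a gene is that of its brightest kept probe. A distance runs to the gene's nearest probe, which can be another one. The Nod1 probe itself lay at 3.15, 3.19 and 3.78 in Nod1 +/- and at 3.20, 3.18 and 3.35 in Nod1 -/- (adjusted p = 0.659), and since the deleted part of the gene was not given, it does not check the labels. All 7 smooth muscle markers were kept, and limma called 0 of them (0 at an unadjusted p under 0.05), at a mean level of 4.82 to 5.15 in Nod1 +/- and 4.74 to 5.14 in Nod1 -/-. Of 10 neutrophil markers 7 were higher in Nod1 +/-, where their mean level was 2.21 to 2.84 against 0.03 to 0.53, while 2 of 7 kept macrophage, 2 of 6 endothelial, 2 of 5 fibroblast and 2 of 3 epithelial markers were lower, beside 6.81% of all kept probes higher and 9.13% lower. Some marker sets with 0 calls varied widely within a genotype. The skeletal muscle mean was 5.86, 3.15 and 2.63 in Nod1 +/- and 2.30, 2.89 and 3.17 in Nod1 -/-. The sympathetic neuron mean was 0.63, -1.07 and -2.01 against 2.54, 0.57 and -0.82. The part of these cell types in the results below was not tested, and in whole vessels fewer cells of a type and less RNA per cell cannot be told apart. The probe of Xist, an X-linked RNA of female cells, stood at 1.35, -6.45 and 1.49 in Nod1 +/- and at 1.08, -6.90 and -6.24 in Nod1 -/-. Arrays thus differed in Xist within each genotype, and not evenly between genotypes. Fetal sex was not included in any fit, and its part was not tested. Region probes were dim, with a median level of -2.42 against 0.21 for the other kept probes. On Nod1 +/- replicates 1 to 3, 26.9%, 32.2% and 36.2% of region probes were well above background, and on the Nod1 -/- replicates 40.6%, 37.9% and 34.4% (exact permutation test, two-sided, p = 0.2; the smallest p for 3 against 3 is 0.1). Just inside the filter, 518 probes detected on exactly 3 arrays had a median level of -4.17, and just outside it 716 detected on 2 had -4.57.

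The share of region probes called was below that of the whole array, a gap that was not itself tested. In all, 530 of the 5619 kept region probes were called (9.43%), against 15.9% of all kept probes and 17.4% of the probes outside the region set. Of these, 185 were higher in Nod1 +/- aortas (3.29%, against 6.81% of all kept probes and 7.62% of the others) and 345 lower (6.14%, against 9.13% and 9.82%). With a minimum of 2-fold, 2.95% of region probes were called, against 5.15% of all kept probes: 86 were higher (1.53%, against 2.72%) and 80 lower (1.42%, against 2.42%). Genotypes did not overlap for 1595 region probes, 28.4% against 40.7% of all kept probes. The lower share was also seen among probes of like signal. In 4 bands that each held about as many region probes, 8.40%, 7.98%, 9.75% and 11.6% of region probes were called from the dimmest band to the brightest, and 14.8%, 16.7%, 18.8% and 17.6% of the other probes. The direction of the balance depended on scaling. With median scaling, which moved the median difference of all kept probes from -0.09 to 0.02, 205 region probes were higher and 133 lower. Leaving out Nod1 +/- replicates 1, 2 or 3, or Nod1 -/- replicates 1, 2 or 3, gave 106, 116, 147, 92, 58 and 144 higher and 108, 138, 471, 92, 56 and 187 lower, and blocking on the 2 slide rows gave 47 and 71.

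The 530 called probes belonged to 345 named strands of regions, which merge into 97 higher and 212 lower stretches of genome. Probes of the same region and strand often shared a sign. Of 824 named strands with 3 or more kept probes, 476 had differences of a single sign throughout, 640 had no called probe, and the median range of the difference within a strand was 0.36. All kept probes were called higher in 13 of these strands and lower in 14, and 2 named strands in the whole set held calls in both directions. Probes of a strand share a target, so they are repeat readings and not replicates of the genotype. In all, 33 higher and 6 lower probes stayed called in each fit with another scaling or background correction, with a replicate or slide row block, and with 1 array left out.

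On chromosome 16, the forward region chr16:84708695-84708806 had a single probe, printed above as A_30_P01032196. Its level was -1.66, -2.12 and -1.99 in Nod1 +/- and -5.74, -5.22 and -5.35 in Nod1 -/- aortas. It was well above background on every Nod1 +/- array and on no Nod1 -/- array, so it passed the filter only through Nod1 +/-, and its detection adds nothing to the test. The rise in Nod1 +/- was at least 9.92-fold under the main processing (measured log2 difference 3.51, standard error 0.19, against background signal; adjusted p = 0.000663). Over the alternative fits the measured difference ran from 1.20 to 3.67. The overlapping reverse region chr16:84702353-84710928 was also higher at all 3 of its probes, by 1.53, 1.59 and 2.04. The probe with the largest difference, A_30_P01020928, stood at -1.02, -1.27 and -1.24 against -3.27, -3.75 and -2.63 (adjusted p = 0.00847). Mrpl39, a mitochondrial ribosomal protein gene, had the nearest named probe, at 9.24 kb from the forward probe. Its brightest kept probe, at chr16:84718547-84718606, differed by -0.23 (adjusted p = 0.187). In the RefSeq gene order of GRCm38.p6, the neighbours of Mrpl39 on 1 side are Mir155 and its host gene Mir155hg, the source of a microRNA of activated immune cells. Mir155hg had no probe under its own name among those tested, and the order in that build does not place the mm9 regions on it.

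Mir17hg, the host of the miR-17-92 cluster, was read by the forward region chr14:115443612-115445950. All 3 of its probes were higher, by 0.95, 0.98 and 0.96, and the Mir17hg probe was higher by 0.9995 (adjusted p = 0.00286). A_30_P01029746 lies at the same position as that gene probe, so their values are not separate evidence. It stood at 1.21, 1.30 and 1.21 in Nod1 +/- and at 0.18, 0.27 and 0.40 in Nod1 -/- aortas, with no overlap.

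The opposite direction was seen at C430049B03Rik, a noncoding gene that the same RefSeq order places between Mir542 and Mir351, with Mir503 and Mir322 next in line. In the reverse region chrX:50400250-50410825, on the strand of the gene's probe, 5 of 6 kept probes were lower in Nod1 +/-, with differences of -1.14 to -1.86. Of these, A_30_P01032068 stood at 2.34, 2.23 and 2.43 in Nod1 +/- and at 3.56, 3.52 and 3.32 in Nod1 -/- (2.20-fold lower; adjusted p = 0.00331). The smaller reverse region chrX:50407969-50410370 was lower at all 3 probes, with differences of -0.65 to -0.82, and 2 of 4 forward probes were lower, at -0.81 and -1.04. The gene's own probe was lower, at -0.52 (adjusted p = 0.0361), and the difference between it and A_30_P01021240, the region probe with the largest change, did not pass the threshold (-1.34, standard error 0.27; limma's adjusted p = 0.0562).

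Long noncoding RNA genes with a name supplied the next group. Of 61 such genes listed, 35 had a kept probe, 7 of which were higher in Nod1 +/-, beside 6.81% of all kept probes (Mir17hg, Mir22hg, Neat1, Pvt1, Snhg12, Snhg3 and Snhg7) and 3 lower, beside 9.13% (Foxd2os, Gata6os and Rmst). The 35 genes had a median difference of -0.01. Among 161 kept region probes whose nearest named gene within 100 kb was on the list, at 18 genes, 18 were higher and 5 lower, with a median of -0.09, beside 3.29% higher and 6.14% lower over all region probes and a median of -0.12. The 18 higher probes lay at Pvt1 (9 of 15), Neat1 (4 of 12), Mir17hg (3 of 14) and Gas5 (2 of 9), while limma called 0 of 10 at Malat1, 0 of 26 at Mirg and 0 of 17 at Dleu2, where 0, 4 and 6 had an unadjusted p under 0.05, all 10 of them lower.

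Pvt1 is the long noncoding RNA gene beside the oncogene Myc. Myc was higher by 1.19 (adjusted p = 0.014) and the Pvt1 probe by 1.25 (adjusted p = 0.00197). A_30_P01025687, in the forward region chr15:61984389-62102500 and 6995 bases from the Pvt1 probe, stood at -0.45, -0.28 and -0.37 in Nod1 +/- and at -1.40, -1.50 and -1.76 in Nod1 -/-, a difference of 1.19 (adjusted p = 0.00407). Forward region chr15:62046023-62082530 was higher at all 3 probes, by 0.73, 0.82 and 0.997, of which the one at 0.82 lies at the position of a Pvt1 probe. In chr15:62090565-62091770 all 3 were higher, by 0.78 to 1.11. The longest region was not uniform. Its probes A_30_P01026887 and A_30_P01027502, 8.54 and 13.4 kb from the nearest Pvt1 probe, differed by 0.23 and -0.17. Both were below the Pvt1 probe's difference, by -1.02 and -1.42 (limma on the per-array gap; adjusted p = 0.0329 and 0.0187).

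Neat1 was higher by 0.63 (adjusted p = 0.0402). At 7.71 to 8.02 kb from its probe, on the same strand, the reverse region chr19:5834117-5835940 was higher at all 3 probes, by 1.11, 1.37 and 1.51. A_30_P01025818 there stood at 0.12, 0.40 and 0.77 in Nod1 +/- and at -1.08, -0.93 and -0.79 in Nod1 -/- aortas. On the opposite strand of the Neat1 locus 1 probe of the 8 kept in the forward region chr19:5771425-5848475 was called, at 0.79 (adjusted p = 0.00752).

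Gas5 is a host of small nucleolar RNAs named for its accumulation in growth-arrested cells. Its brightest kept probe and the region probes near the gene gave unlike values. The gene's probe differed by 0.06 (adjusted p = 0.685). That probe lies at chr1:162968608-162968667. Both probes of the forward region chr1:162965309-162970704, on the same strand, were higher. Their distances to the nearest Gas5 probe were 0.31 and 0.37 kb. For A_30_P01026422, at chr1:162967656-162967715, that nearest one is another Gas5 probe, whose value is not given. A_30_P01026422 stood at -0.61, -0.28 and -0.71 against -1.64, -1.68 and -1.48, and A_30_P01023313 at -0.11, 0.19 and -0.11 against -1.08, -0.85 and -0.96. Their differences of 1.07 and 0.95 exceeded that of the gene by 1.01 and 0.90 (adjusted p = 0.0391 and 0.0431).

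Dancr, also a host of small nucleolar RNAs, was not on the list and was chosen after its values were seen. Its forward region chr5:74487385-74497428 was higher at 8 of 10 probes, by 0.58 to 0.83, and the Dancr probe was higher by 0.65 (adjusted p = 0.0346). The other two probes lay between called ones and differed by 0.18 and -0.09. On chromosome 17 at 1110038B12Rik, 5 of 7 reverse probes of chr17:35080914-35090009 were higher, by 1.06 to 1.59, and 2 of 5 forward probes by 1.02 and 1.26. A_30_P01017723 stood at 0.37, 0.45 and 0.62 in Nod1 +/- and at -1.15, -1.19 and -1.01 in Nod1 -/- aortas, and its difference of 1.59 exceeded the gene's 0.59 by 1.01 (adjusted p = 0.0431). This locus was likewise chosen after its values were seen.

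Regions beside genes that were higher in Nod1 +/- formed another group. Mirt1, a noncoding gene named for its rise after myocardial infarction, was higher by 2.78 (adjusted p = 0.00284). In the reverse region chr19:53517903-53540753, on the strand of Mirt1, 5 of 10 probes were kept and 3 were called. A_30_P01033298, 8.49 kb from the Mirt1 probe, stood at -2.75, -2.07 and -2.16 in Nod1 +/- and at -4.95, -5.31 and -5.98 in Nod1 -/-, where it was not well above background on any array. The change was at least 6.73-fold under the main processing, upward in Nod1 +/- (limma's adjusted p = 0.00323). Over the alternative fits its measured log2 difference ran from 1.02 to 3.65. A_30_P01030158, which adjoins A_30_P01033298, rose at least 5.19-fold (adjusted p = 0.014). The other kept probes of that strand, A_30_P01029324, A_30_P01027848 and A_30_P01018458, lay 327, 387 and 563 bases from the nearest Mirt1 probe. They differed by 1.28, 0.86 and 1.24, less than Mirt1 itself. The gap to Mirt1 passed for A_30_P01027848 (-1.92, limma's adjusted p = 0.0391) and not for A_30_P01029324 or A_30_P01018458 (adjusted p = 0.0955 and 0.0581). The forward strand of the region was kept at 2 probes, with differences of -0.25 and -0.05.

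Irf1, an interferon-inducible transcription factor, was higher by 1.68 (adjusted p = 0.00164). The overlapping reverse regions chr11:53592946-53637922 and chr11:53596919-53672731, on the strand opposite to Irf1, were higher at 3 of 4 and 3 of 3 kept probes, by 1.40 to 1.90. A_30_P01025535, 5103 bases from the nearest Irf1 probe, stood at -0.04, -0.24 and 0.23 in Nod1 +/- and at -1.64, -1.88 and -1.92 in Nod1 -/- (adjusted p = 0.00234). The trio printed above gave 1.85, 1.87 and 1.80, in the order printed. The noncoding Gm12216 has a nearer probe, at 2.07 kb on the reverse strand. Its brightest kept probe, farther off at chr11:53626489-53626548, differed by 0.08 (adjusted p = 0.724). The 2 forward probes of chr11:53592946-53637922 differed by 0.27 and 0.41 (adjusted p = 0.619 and 0.667).

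Npas4, an activity-dependent transcription factor known from neurons, was higher by 2.24 (adjusted p = 0.0131). On the same strand as Npas4, at 10040 bases, A_30_P01019528 of chr19:4994325-4994537 stood at -1.40, -3.02 and -2.19 against -4.26, -5.16 and -4.64, and A_30_P01020765 of chr19:4991356-4993113 was higher by 2.20 (adjusted p = 0.0298). The calls of A_30_P01019528 and A_30_P01020765 held in 13 of 16 and 11 of 16 alternative fits. The other kept probe of chr19:4991356-4993113, A_30_P01026266, lay 7395 bases from the Npas4 probe and differed by 0.18. Its gap to Npas4 was -2.06 and did not pass (limma's adjusted p = 0.0515).

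Several regions with large differences had a nearest named gene that was not called or, for Ropn1, not kept. Reverse regions chr16:34524589-34573439 and chr16:34559623-34560462, the second inside the first and both over 100 kb from the nearest named probe, that of Ropn1, were higher at 5 of 5 and 3 of 3 probes, by 1.37 to 1.71. A_30_P01028555 stood at 1.46, 1.74 and 2.49 in Nod1 +/- and at 0.14, 0.05 and 0.38 in Nod1 -/-. Forward region chr4:149445201-149445902 was higher at all 3 probes, by 1.09 to 1.70, and reverse region chr4:146507925-146532650 at all 5, by 1.12 to 1.32. The nearest named genes of these last regions, Gpr157 and Zfp982, differed by 0.13 and 0.09. The Gpr157 probe lay 34039 bases from A_30_P01032002. The Zfp982 probe lay 355755 bases from A_30_P01029783, beyond the 100 kb limit used for neighbours.

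Among the named probes, chosen without chromosome 18, the largest differences came from single probes of their strand. A_30_P01024792, at the edge of reverse region chr1:138528250-138538250, stood at -1.07, -1.31 and -2.27 in Nod1 +/- and at -6.81, -6.55 and -6.25 in Nod1 -/-, a rise of at least 15.4-fold under the main processing (adjusted p = 0.00123). Over the alternative fits its measured log2 difference ran from 1.71 to 5.34. The other two kept probes of the same strand differed by 0.10 and -0.38, and Zfp281, 3.66 kb away on the opposite strand, by 0.29 (adjusted p = 0.111). A_30_P01020746, the only kept probe of 3 in reverse region chr7:68849401-68958266, was at least 10.2-fold higher (-2.18, -2.33 and -1.89 against -6.79, -6.77 and -5.62). A_30_P01023823, in chrX:137519350-137534325 on the reverse strand, was also at least 10.2-fold higher, while the other kept probe of that strand differed by -1.14 (adjusted p = 0.114). In these regions the difference was seen at 1 probe, and other probes of the same strand did not show it or were not kept. A_30_P01024792, A_30_P01020746 and A_30_P01023823 were well above background on every Nod1 +/- array and on no Nod1 -/- array. They passed the filter only through Nod1 +/-, so their detection adds nothing to the test. A_30_P01023737, the only probe of chr13:21856097-21859200, was among the brightest region probes and was higher in Nod1 +/-, at 8.79, 8.60 and 8.56 against 6.61, 6.77 and 6.85 (3.74-fold; adjusted p = 0.000987). The other 4 of the 5 brightest region probes did not pass the test. Of these, A_30_P01031754, 6.42 kb from the probe of Malat1, a nuclear RNA of splicing speckles, stood at 7.68 ± 0.19 and 7.84 ± 0.14 (SD, n = 3; limma's adjusted p = 0.472).

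Probes lower in Nod1 +/- aortas were more numerous, 345 against 185 (133 against 205 with median scaling). The filter bears on this count: 152 kept probes were well above background on all 3 Nod1 -/- arrays and 0 Nod1 +/- arrays, 54 of them called lower, and 11 the other way round, 10 of them called higher. A_30_P01031408, the only probe of reverse region chr8:67552315-67561235, lies 0.18 kb from the probe of Apela, which encodes a peptide ligand of the apelin receptor in heart and vessel development. It stood at -1.61, -2.43 and -2.94 in Nod1 +/- and at -0.67, -0.37 and -1.05 in Nod1 -/-, a difference of -1.63 (adjusted p = 0.0314) beside -1.77 for Apela (adjusted p = 0.00436). Its call held in 9 of 17 alternative fits. In forward region chr2:72818943-72826893, at the noncoding Sp3os, 5 of 7 probes were lower, and all 7 differences lay between -1.08 and -0.48. A_30_P01018697, in chr9:81536195-81538236 on the forward strand, was at least 2.54-fold lower (-4.98, -4.33 and -4.50 against -2.96, -2.86 and -2.86; adjusted p = 0.00381) and stayed called in all 15 fits that kept it. A_30_P01030198, in chr3:57416618-57429679, gave the largest bound among the lower probes named here, at least 4.09-fold lower (adjusted p = 0.0338), with Nod1 -/- values of -3.49, -4.07 and -1.63 that were far apart. Its call held in 10 of 16 alternative fits, and the measured difference over the fits ran from -4.36 to -0.86. In reverse region chr2:84344350-84370075, 3 adjoining probes were well above background on 0 Nod1 +/- arrays and were at least 2.53-fold, 2.29-fold and 2.29-fold lower there, and the 2 on either side differed by 0.06 and -0.74. Angpt2, an endothelial angiopoietin, was lower, at -1.49 (adjusted p = 0.00184), and A_30_P01018308 of chr8:18587198-18592948, 102.0 kb away, was at least 2.61-fold lower (adjusted p = 0.045), a call that held in 5 of 15 fits. A_30_P01018697, A_30_P01030198, A_30_P01018308 and the 3 adjoining probes on chromosome 2 passed the filter only through Nod1 -/-. Their detection adds nothing to the test, and the alternative fits reuse the same arrays.

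Distance and strand were then related to the nearest named gene. Distances run between probes, not between transcripts, since mm9 gene models were not used here. They run to the gene's nearest probe, whereas its call and difference are those of its brightest kept probe. That probe can lie well outside the stated distance. A Nav3 probe lay 139 bases from A_30_P01025335 of chr10:109653855-109858347, but the Nav3 probe measured starts at chr10:109120495. Of the kept region probes 5577 had a position, and their nearest named probe lay at a median of 16594 bases, for 3378 on the same strand and for 2199 on the opposite one. It belonged to a protein-coding gene for 4270 and of an annotated long noncoding RNA for 1116. Not all of these probes were far from genes. In all, 609 kept probes lay within 1 kb of a named gene's probe, and 65 matched a RefSeq promoter window by sequence, of which limma called 0 higher and 4 lower (2 higher and 8 lower at an unadjusted p under 0.05). Of all kept region probes 3.29% were higher and 6.14% lower, so the lower share here is near the background.

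Same-strand probes within 5 kb of a gene's probe were called most often among the same-strand classes, at 14.0% (58 higher and 84 lower of 1014), against 7.55% of 490 on the opposite strand. At 5 to 20 kb the shares were 8.95% of 927 and 7.41% of 580, and at 20 to 100 kb 8.55% of 1111 and 6.98% of 831. Beyond 100 kb 14.4% of the 298 opposite-strand probes were called, with 17 higher. The higher ones included several probes of reverse region chr4:146507925-146532650, which are repeat readings of that strand. Over all kept region probes the share called was 9.43%. For genes with their nearest probe within 5 kb on the same strand, region probe and brightest gene probe were compared. Where both were called, 66 pairs had the same sign and 1 the opposite sign. The Pearson correlation of their differences, over 904 pairs from 252 genes measured on the same arrays, was 0.53. On the same strand it was 0.33 at 5 to 20 kb, 0.18 at 20 to 100 kb and 0.21 beyond, and on the opposite strand within 5 kb it was 0.24. Among pairs at 20 to 100 kb with both probe and gene called, 18 had the same sign and 6 the opposite sign on the same strand, and 3 and 7 on the opposite strand. Of the kept probes 100 lay within 60 bases of a probe of the gene on the same strand and so read nearly the same bases as that probe. Without them, 12.8% of 914 were called within 5 kb, with 52 pairs of the same sign and 1 of the opposite sign and a correlation of 0.50.

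Within 20 kb on the same strand, called regions had the direction of their called gene in all pairs but 1. Next to same-strand genes higher in Nod1 +/-, 53 of 152 region probes were higher and 1 lower, and next to genes that were lower, 0 of 150 were called higher by limma (1 at an unadjusted p under 0.05) and 52 lower. Near uncalled genes the counts were 38 and 65 of 1414. On the opposite strand 7 of 86 probes were higher beside higher genes, and 13 of 76 were lower beside lower genes. Several probes can share a gene, so these counts are not independent.

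Few region probes lay beside inflammatory genes. Of 85 listed genes, 74 had a kept probe, of which limma called 64 higher in Nod1 +/- and 0 lower (66 and 0 at an unadjusted p under 0.05), with a median difference of 2.74 beside -0.09 for all kept probes. Of all kept probes 6.81% were higher and 9.13% lower, and the list was chosen with earlier results of these data known. Within 100 kb, 12 kept region probes had one of them as nearest gene, at 5 genes. Of these 12, limma called 0 (2 were lower at an unadjusted p under 0.05), with a median of -0.26 beside -0.12 for all kept region probes. When the nearest protein-coding gene was taken instead, 22 probes were found, 6 of them higher, all at the Irf1 regions. Of 118 transcription factor genes of heart, vessel and mesoderm, 98 were tested, 6 higher and 20 lower, beside 6.81% and 9.13% of all kept probes. Among 58 region probes beside 19 of them, 1 was higher and 4 lower, shares near the 3.29% and 6.14% of all kept region probes. The called probes included a pair at Nfib, a nuclear factor I gene, at -0.85 and -0.88 beside -0.46 for Nfib, and A_30_P01023783 at 0.69 beside 0.97 for Sox4, an HMG-box factor, with calls that held in 10 of 17, 8 of 16 and 8 of 16 alternative fits. The Nfib value comes from a probe that starts at chr4:81941988, while the pair starts at chr4:82158667 and chr4:82158607.

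Region and gene were compared directly in 4141 pairs with the gene's nearest probe within 100 kb. The per-array gap between the region probe and the gene's brightest kept probe was tested. The gap differed between genotypes in 118 pairs (2.85%), with the region more positive in 37 (0.894%) and more negative in 81 (1.96%). At Bcl2a1d, an anti-apoptotic BCL2 relative that was higher by 3.97, A_30_P01029533 lay 3.61 kb off on the same strand and stood at 0.18, 0.21 and 0.09 in Nod1 +/- against 0.999, 0.986 and 0.596 in Nod1 -/-. The gap was -4.66 (standard error 0.18; adjusted p = 0.000309). This probe also matched the promoter windows of Mthfs and Mthfsl. Around Socs3, a cytokine-feedback gene higher by 2.19, 7 region probes at 8465 to 35361 bases differed by -0.91 to 0.33. Limma called 0 of the 7 (0 at an unadjusted p under 0.05), and all 7 gaps to the gene passed the threshold, at -1.86 to -3.10. Near Nfkbia, the NF-kB inhibitor gene higher by 2.40, A_30_P01030816 was well above background on no Nod1 +/- array and was not called (adjusted p = 0.0885), while its gap to the gene passed (adjusted p = 0.0121). Near Pdgfb, a platelet-derived growth factor gene higher by 1.70, A_30_P01030130 was lower, at -1.19 (adjusted p = 0.008), a gap of -2.88 (adjusted p = 0.00416). Among pairs with the region more positive were the forward probe near Mrpl39 (adjusted p = 0.000857) and the probe near Zfp281 (adjusted p = 0.00256), whose gaps rest on background signal in Nod1 -/- and are not given as sizes. Leaving out 1 array gave 5 to 15 more positive and 6 to 57 more negative pairs, and the slide row block 4 and 17.

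The strands of a region were compared in the 469 regions with both kept. Across these regions the forward and reverse differences, which come from the same arrays, had a Pearson correlation of 0.19, and 271 regions had the same sign on both strands. The genotype difference was unequal between strands in 1 region (0.213%), and 68 had an unadjusted p under 0.05 (14.5%). In chr17:84470764-84486339 the forward probe stood at -2.87, -3.07 and -2.14 in Nod1 +/- and at -1.94, -2.32 and -1.74 in Nod1 -/- aortas. The mean of 5 reverse probes stood at -2.31, -2.53 and -1.97 against -3.43, -3.85 and -3.03. The reverse strand differed by 1.16 and the forward strand by -0.69, a contrast of -1.85 (standard error 0.20; limma's adjusted p = 0.0143). With Nod1 -/- replicate 1 or 2 left out, or with the replicate block, the count was 0. At Mirt1 the strands differed by -2.06 (adjusted p = 0.0569), in chr13:60508775-60534625 by -2.43 and in the Irf1 region chr11:53592946-53637922 by -1.11 (both adjusted p = 0.0754), and at Gas5 by 1.07 (adjusted p = 0.11), none of which passed.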

How the data were processed

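Total RNA was labelled with Cy3 and hybridised to 1-colour Agilent arrays. The authors deposited scanner output with a linear intensity per spot from which Agilent's Feature Extraction had removed background. Its version is 10.7.1.1 in the file headers and 9.5.1.1 in the submitters' processing notes, and which applies was not resolved. Positions refer to mm9 per the file headers, and all 6 arrays shared 1 slide and 1 scan time. The deposited value table, also an intensity table of the authors, served as an alternative. Its sorted columns agreed to within 0.000993 log2, so its arrays already shared the same distribution of values. Its counts were close to those of quantile scaling. The deposited values and quantile scaling were counted as separate fits but are not independent.

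Control and outlier spots were left out, and 0 spots were saturated. On 1 or more arrays, no usable spot was left for 53 region probes. The deposited intensities were converted to log2, averaged over spots of a probe, and reduced by the 75th percentile of non-control probes on that array. Probes well above background on at least 3 of 6 arrays were fitted with limma 3.58.1 (lmFit, eBayes) in R 4.3.3, with Benjamini-Hochberg adjustment over all 30172 kept probes and a threshold of 0.05. The per-array gap between strands, and between a region probe and the brightest kept probe of its nearest named gene within 100 kb, was fitted the same way over 469 regions and 4141 pairs. Where no array of a genotype had a probe well above background, "at least N-fold" compares the brighter genotype's mean with a floor: on each dimmer array, the lowest signal of any probe marked well above background, or the probe's own if that was higher. That bound holds for the main background and scaling only, and some alternatives gave smaller differences. Alternatives covered background, scaling, filters, 1 probe per name, the variance model, replicate and slide row blocks, the deposited table, a 2-fold minimum and each array left out.

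Named probes were, leaving out chromosome 18, the 12 largest differences in each direction among called probes with no overlap of genotypes and detection on all arrays of the brighter one (1 probe per named strand), up to 6 called neighbours per gene list, the 4 regions and 4 pairs with the smallest p for unequal strands or genes, and the 5 brightest probes. The members and lists were chosen with earlier results of these data known. Probes named outside this rule (at Irf1, Neat1, Gas5, C430049B03Rik, Ropn1, Gpr157, Zfp982, Sp3os, Dancr, 1110038B12Rik, Socs3, Nfkbia and Pdgfb, and further probes of named regions) were chosen after their values were seen. Sequences of probes come from the deposited files, and promoter windows from RefSeq on GRCm38.p6. On simulated data for the 30172 probes, with 200 region probes changed in each of 10 runs, 0.147%, 20.2% and 59.9% of differences of 0.5, 1 and 2 were recovered, with 0 to 6 false calls. The data held 4811 calls, and the Benjamini-Hochberg cut-off is stricter when fewer probes change. These are therefore not the recovery rates of the data. The number of arrays limits the precision.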

Additional observations from a re-analysis of the deposited data

How the results depend on the processing

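Of the 42 named region probes, 1, the uncalled A_30_P01026458, changed sign under some alternatives (-0.08, with a range of -0.12 to 0.03), and the others kept their direction under each alternative run. A call was kept, or stayed absent, in 536 comparisons and was lost in 142. Against 185 higher and 345 lower region probes, median scaling gave 205 and 133, no filter on dim probes 63 and 48, 1 probe per name 82 and 167, the slide row block 47 and 71, and a 2-fold minimum 86 and 80. Leaving out each array gave 58 to 147 higher and 56 to 471 lower. For the strand contrast, called in 1 region, normexp gave 7, while quantile scaling, the filter on all arrays of 1 genotype and the deposited values gave 2, and leaving out an array gave 0 to 4. For regions against their nearest genes (37 more positive, 81 more negative), normexp gave 154 and 203, and no filter gave 5 and 5. Quantile scaling and the deposited values gave 63 more positive, the filter on all 6 arrays 71, that on 1 genotype 67, and the slide row block 4 and 17. Leaving out an array gave 5 to 15 more positive and 6 to 57 more negative. The cause of these changes was not tested, apart from fewer arrays or probes where an alternative removes them.

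Replicate numbers were tried as a block. Same-numbered arrays deviated together with correlations of 0.09, 0.28 and 0.11, so they were not treated as pairs. The replicate block gave 185 higher and 351 lower region probes, 0 strand contrasts, and 9 more positive and 20 more negative region and gene pairs. Nod1 -/- replicates 1 and 2 lay in 1 slide row and the other 4 arrays in the next, so row and genotype are partly shared. With 200 of the 30172 kept probes changed, a simulated difference of 1 was recovered at 20.2% of changed probes. In the data 4811 probes were called, which makes the cut-off less strict, so the simulated rate is not that of the data. A probe that missed the threshold is not shown to be equal between genotypes.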
